A study of Mus musculus with 24 samples.

Results

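The 5 genes described here were Lpl, Lipg, Angptl4, Pnpla2 and Mgll, that is, 4 lipases and 1 lipase inhibitor. They were taken by gene symbol from the deposited count table, and 5 of 5 were among its 11590 genes. The cells were macrophages grown with M-CSF from bone marrow of C57BL/6 males. The mice were wild-type (WT) or lacked GPR35 (KO), a receptor that signals through G proteins. On day 7 they received 10 µM lysophosphatidic acid (LPA), 10 ng/mL lipopolysaccharide (LPS) or nothing (Cont) for 4 h. Each of the 6 groups (WT Cont, WT LPA, WT LPS, KO Cont, KO LPA and KO LPS) held 4 libraries. The labels do not say how GPR35 was removed, whether KO and WT mice were littermates, or whether replicates came from separate animals. Where they did not, p-values measure only the spread between these libraries. The study compared LPA and LPS responses with and without GPR35.

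Triacylglycerol reaches macrophages in lipoproteins and is stored in lipid droplets, and separate enzymes release fatty acids from each. Lipoprotein lipase (Lpl) and endothelial lipase (Lipg) are secreted and act on lipoproteins, Lpl mainly on triacylglycerol and Lipg mainly on phospholipids. ANGPTL4 is a secreted inhibitor of lipoprotein lipase whose gene is a textbook target of PPAR receptors and of hypoxia signalling. Inside the cell, ATGL (Pnpla2) takes the first fatty acid from stored triacylglycerol, and monoacylglycerol lipase (Mgll) takes the last one and also breaks down the endocannabinoid 2-arachidonoylglycerol.

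WT libraries held 31985119 to 46697165 counts and KO libraries 15167683 to 21461866. The library names list 2 sequencing runs for each WT library and 1 for each KO library. Genotype and sequencing run therefore cannot be told apart in comparisons of KO with WT. Gpr35 was at 2.60 ± 0.214 CPM (counts scaled to library size; mean ± SD, n = 4) in WT Cont and at 0.133 ± 0.0710 in KO Cont. With LPA it was at 2.07 ± 0.697 CPM in WT and 0.110 ± 0.0844 in KO. With LPS it was at 0.417 ± 0.150 CPM in WT and had 0 counts in KO, so Gpr35 RNA was low in both genotypes there. Summed over 20 of 20 measured macrophage identity genes, the level lay between 49919 and 59564 CPM in all 24 libraries. Its members moved within that sum. At an adjusted p below 0.05, 4 were higher and 5 lower with LPA in WT, beside 23.5% and 21.1% of all genes. With LPS in WT it was 9 and 10, beside 40.6% and 43.6%. Summed levels were 251 to 641 CPM for 13 of 15 neutrophil and precursor markers. For 4 of 12 stromal cell and fibroblast markers they were 1.85 to 25.5 CPM. Of 9 adipocyte markers 0 were measured. In bulk RNA, fewer cells of a type and less RNA per cell cannot be told apart.

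The 5 genes spanned a wide range of abundance, with Lpl among the most abundant transcripts of these macrophages. Divided by the gene length in the deposited table, Lpl averaged 971 CPM per kb in WT Cont and ranked 28 of 11590 genes. On the same per-length scale the level was 36.4 for Pnpla2, 6.39 for Angptl4, 3.60 for Mgll and 0.164 for Lipg, which ranked 11426. With LPS, Lipg reached 33.8 CPM per kb in WT (rank 2460) and 14.5 in KO (rank 4348).

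**Figure D1:**
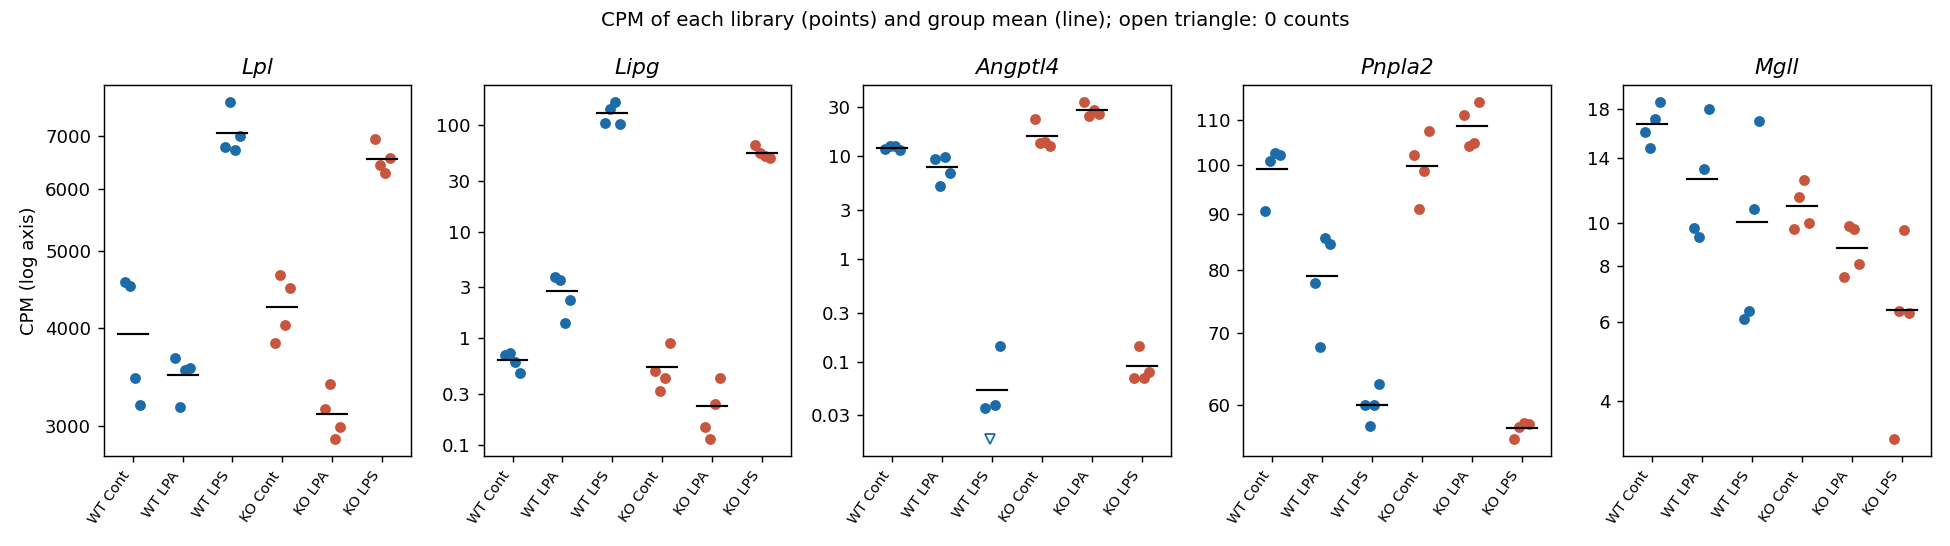
CPM of each library on a log axis that differs between panels, for the 5 genes in the 6 groups (WT blue, KO red; points are libraries in order of replicate number, black lines are group means of 4, and an open triangle marks a library with 0 counts). LPS libraries lie apart from untreated ones for Lpl, Lipg, Angptl4 and Pnpla2 in both genotypes, and LPA libraries of WT and KO lie apart from each other for Lipg, Angptl4 and Pnpla2.

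LPA moved Angptl4 down in WT and up in KO macrophages. Angptl4 lies on chromosome 17 (33774900 to 33781575, minus strand, GRCm38.p6; 7 exons). In WT Cont the 4 libraries, in order of replicate number, held 11.8, 12.7, 12.6 and 11.4 CPM, and in WT LPA 9.48, 5.11, 9.77 and 6.91 CPM. Every WT LPA library was below every WT Cont library. The log2 change was −0.64 ± 0.19 (SE; adjusted p = 0.0087, edgeR quasi-likelihood test). The KO Cont libraries held 23.3, 13.6, 13.8 and 12.7 CPM, and the KO LPA libraries 34.1, 24.9, 28.3 and 25.6 CPM. KO LPA libraries were all above KO Cont libraries, although KO Cont replicate 1 came within 2 CPM of the lowest of them. Angptl4 rose in KO by 0.83 ± 0.19 on the log2 scale (adjusted p = 0.014).

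The difference between the genotypes in the LPA effect on Angptl4 was itself past the threshold, at 1.47 ± 0.26 (KO minus WT, log2; adjusted p = 5.3e-04). With LPA present, Angptl4 was 3.61-fold higher in KO than in WT (log2 1.85 ± 0.19, adjusted p = 1.7e-07), and the ranges did not overlap. Without treatment the means were 15.8 ± 4.96 CPM in KO and 12.2 ± 0.637 in WT, the ranges overlapped, and the difference of 0.38 ± 0.19 did not pass the test (95% interval −0.01 to 0.77). Joined by replicate number, LPA was below Cont in 4 of 4 WT numbers, with ratios of 0.801, 0.401, 0.772 and 0.605. In KO it was above Cont in 4 of 4, with ratios of 1.47, 1.83, 2.04 and 2.02. The rise in KO was no longer called without KO LPA replicate 1 (0.73, adjusted p = 0.062), without KO Cont replicate 3 (0.77, 0.059) or without KO Cont replicate 4 (0.74, 0.066). It was also not called when the KO Cont and KO LPA libraries were fitted alone (0.84, adjusted p = 0.096).

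Lipg was near the detection limit in untreated cells, and in WT it rose with LPA to a few CPM. It lies on the minus strand of chromosome 18. WT Cont libraries held 32, 38, 24 and 19 counts (0.698, 0.723, 0.594 and 0.476 CPM), and WT LPA libraries held 166, 141, 50 and 92 counts (3.78, 3.55, 1.39 and 2.29 CPM). All WT LPA libraries were above all WT Cont libraries, and their spread was wide. Lipg rose by 2.13 ± 0.31 on the log2 scale, or 4.39-fold (adjusted p = 2.6e-05). The ratio of the summed counts, 449 against 113 and scaled by library size, was 4.44, with an exact 95% interval of 3.61 to 5.51 that covers counting error only.

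In KO, Lipg did not pass the test with LPA. KO Cont libraries held 11, 6, 9 and 22 counts (0.490, 0.317, 0.426 and 0.902 CPM) and KO LPA libraries 3, 2, 5 and 9 counts (0.149, 0.113, 0.243 and 0.428 CPM). The ranges overlapped, and LPA was below Cont in 4 of 4 replicate numbers. The log2 difference was −1.19 ± 0.73 (adjusted p = 0.56, 95% interval −2.72 to 0.34), and the ratio of summed counts was 0.433 (0.240 to 0.750, counting error only). At these counts the test has little precision, so no change in KO was detectable. The LPA effect differed between genotypes by −3.32 ± 0.79 (KO minus WT, log2; adjusted p = 0.0044). With LPA present Lipg was 11.5-fold lower in KO (log2 −3.52 ± 0.48, adjusted p = 7.9e-06), with no overlap.

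Pnpla2 fell with LPA in WT and did not pass the test in KO. The gene lies on chromosome 7 (141455188 to 141460743, plus strand; 8 exons in the Pnpla2-202 transcript). WT Cont libraries held 90.7, 100.9, 102.6 and 102.0 CPM and WT LPA libraries 77.7, 67.9, 85.6 and 84.6 CPM, without overlap. The fall was 0.33 on the log2 scale (−0.33 ± 0.06, adjusted p = 2.7e-04). KO Cont libraries held 102.0, 91.0, 98.7 and 107.4 CPM and KO LPA libraries 111.2, 103.9, 104.7 and 114.3 CPM. These ranges overlapped, and the log2 difference was 0.12 ± 0.06 (adjusted p = 0.45, 95% interval −0.01 to 0.25). The LPA effect differed between genotypes by 0.45 ± 0.09 (adjusted p = 0.0011), and with LPA present Pnpla2 was 1.37-fold higher in KO (adjusted p = 4.6e-06).

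Lpl did not pass the test with LPA in WT and fell in KO. It lies on chromosome 8 (68880555 to 68906932, plus strand, 10 exons). WT Cont libraries held 4567, 4513, 3455 and 3192 CPM, with replicates 1 and 2 above replicates 3 and 4, and WT LPA libraries held 3660, 3173, 3537 and 3562 CPM. The ranges overlapped, and the log2 difference of −0.17 ± 0.10 did not pass the test (adjusted p = 0.15, 95% interval −0.38 to 0.03). Without WT Cont replicate 4 it was called (−0.26, adjusted p = 0.032). KO Cont libraries held 3827, 4672, 4031 and 4490 CPM and KO LPA libraries 3159, 3394, 2889 and 2995 CPM, without overlap. Lpl fell in KO by 0.45 on the log2 scale (−0.45 ± 0.10, adjusted p = 0.011), a call that was lost without KO LPA replicate 3 (−0.42, adjusted p = 0.053). The difference between genotypes, −0.28 ± 0.14, did not pass the test (adjusted p = 0.14, 95% interval −0.57 to 0.01), so the LPA effect on Lpl is not shown to differ between WT and KO.

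Mgll was called for LPA in neither genotype by the test without a replicate term. The gene lies on chromosome 6 (88724412 to 88828360, plus strand; 8 exons in Mgll-201). In GENCODE M21, 5 further gene models overlap it, of which Gm26588 and Gm43937 lie on the opposite strand. The strand setting of the counting is not given in the sources used here, so reads of these models and of Mgll may not be separated. Mgll held 16.0, 14.8, 17.1 and 18.7 CPM in WT Cont and 9.75, 9.28, 13.2 and 18.0 CPM in WT LPA. The log2 difference was −0.41 ± 0.27 (adjusted p = 0.22), with LPA lower in 4 of 4 replicate numbers. Over all genes, deviations from the group mean correlated by 0.506, 0.221, 0.626 and 0.211 between same-numbered WT Cont and WT LPA libraries. Differently numbered libraries of a genotype had a median of −0.0786 but reached 0.466, so the pairing is likely and not certain. With the replicate number as a block, Mgll was called in WT (−0.46 ± 0.15, adjusted p = 0.017). In KO, 9.71, 11.4, 12.5 and 10.0 CPM stood against 7.58, 9.84, 9.68 and 8.09 CPM with LPA (log2 −0.31 ± 0.29, adjusted p = 0.76). The genotypes' LPA effects on Mgll differed by 0.10 ± 0.40 (adjusted p = 0.88).

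**Figure D2:**
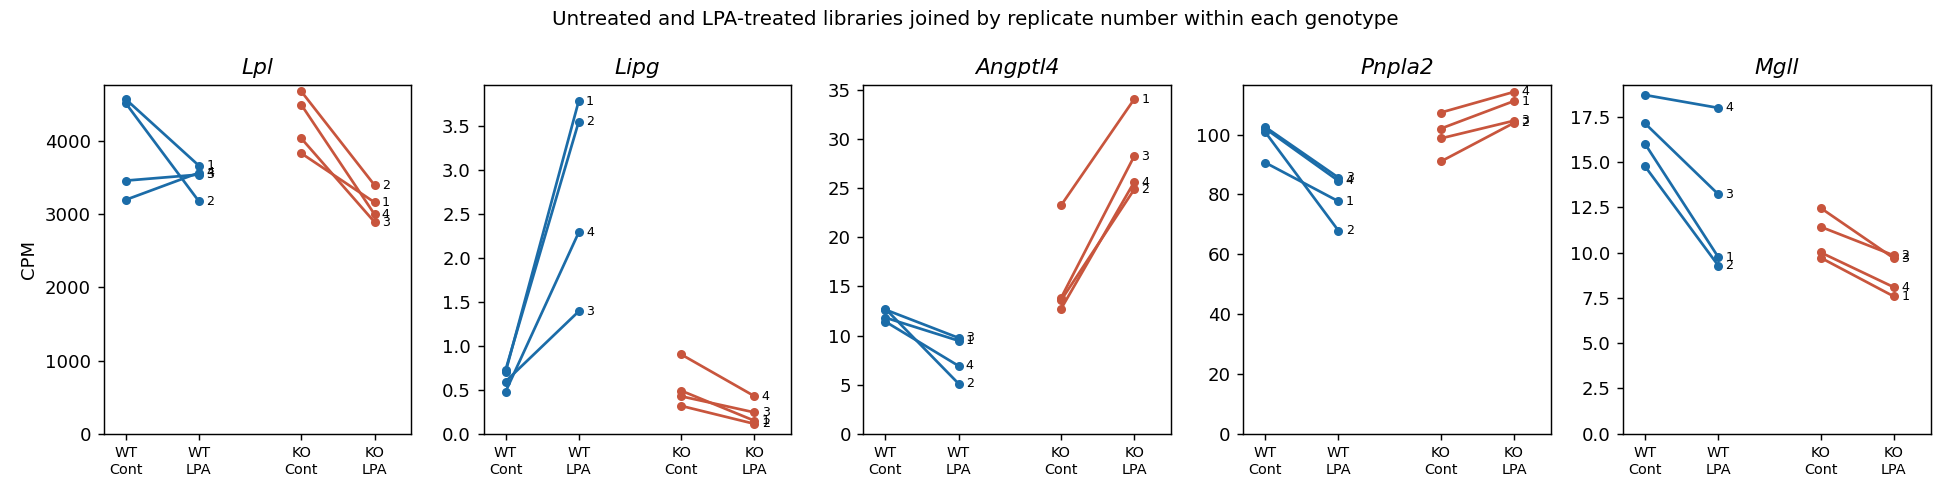
CPM of the 5 genes on linear axes from 0 in untreated and LPA-treated libraries, joined by replicate number within each genotype (WT blue, KO red; small digits are replicate numbers). Angptl4 lines fall in 4 of 4 WT numbers and climb in 4 of 4 KO numbers, and Mgll lines slope down in 4 of 4 numbers of both genotypes.

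Of the 5 genes, 3 were called for LPA in WT (1 higher, 2 lower), where 44.6% of all genes tested were called, 23.5% higher and 21.1% lower. In KO 2 were called (Angptl4 higher, Lpl lower), against 2.62% of all genes, 1.56% higher and 1.06% lower. For the difference of the LPA effect 3 were called, against 28.5% of all genes, 12.7% higher in KO and 15.8% lower. For KO against WT with LPA 3 were called, against 50.3%, with 24.4% higher and 25.9% lower, and these 3 were also called with every library thinned to 15167683 counts. In untreated cells 0 of 5 were called between genotypes, against 0.00863% of all genes, which was Gpr35 alone. Of the 5, Mgll had the lowest unadjusted p there. Its KO Cont libraries lay below all WT Cont libraries, with a log2 difference of −0.61 ± 0.28 (unadjusted p = 0.038, adjusted p = 1.0).

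LPS raised both secreted lipases, lowered the 2 intracellular ones and reduced Angptl4 to a few counts. Of the 5 genes, 5 were called in WT, where 84.2% of all genes were called (40.6% higher, 43.6% lower). In KO 5 were called as well, where 82.3% were (39.3% higher, 43% lower). Lpl held 6777, 7737, 6716 and 6998 CPM in WT LPS and 6942, 6437, 6282 and 6562 CPM in KO LPS, above all untreated libraries of the same genotype. It rose by 0.84 ± 0.10 in WT (adjusted p = 3.7e-08) and by 0.62 ± 0.10 in KO (adjusted p = 4.0e-06), both log2. This size depends on scaling. Relative to library totals the rise was 0.29 in WT (adjusted p = 0.0058) and 0.13 in KO, where it was no longer called (adjusted p = 0.19). That scaling moved the median of all genes with LPS to −0.59 in WT and −0.55 in KO. As a share of all counts, Lpl averaged 0.448% in WT Cont and 0.539% in WT LPS.

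Lipg was high in LPS libraries of both genotypes. WT LPS libraries held 104.6, 140.7, 164.7 and 102.7 CPM, and KO LPS libraries 65.3, 54.8, 51.6 and 48.7 CPM. The lowest WT LPS library was above the highest KO LPS library. Against untreated cells Lipg rose 202-fold in WT (log2 7.66 ± 0.26, adjusted p = 1.3e-16) and 99.2-fold in KO (log2 6.63 ± 0.30, adjusted p = 1.4e-14). With LPS present it was lower in KO at 0.430 of the WT level (log2 −1.22 ± 0.17, adjusted p = 9.9e-04). It was the 1 gene of the 5 called there, against 2.85% of all genes (0.69% higher, 2.16% lower). That comparison was unstable across all genes. Lipg itself stayed called in 8 of 8 fits that left out 1 library (log2 −1.31 to −1.07, adjusted p 4.4e-04 to 0.0091). With the replicate number as a block 0 genes were called by edgeR, and Lipg was at −1.18 (adjusted p = 0.088). The numbers do not pair samples across genotypes, and that fit held only the KO LPS and WT LPS libraries. It therefore cannot show whether these calls hold. Leaving out 1 library gave 65 genes without WT LPS replicate 3, 74 without KO LPS replicate 3, 160 without WT LPS replicate 2, 190 without KO LPS replicate 4 and 577 without WT LPS replicate 1, against 330 genes with all libraries. The difference of the LPS effect between genotypes was −1.02 ± 0.55 for Lipg (adjusted p = 0.87), and 0 of 5 genes were called for it, against 0% of all genes by edgeR.

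Endothelial lipase is named for endothelial cells, and the measured endothelial markers went both ways. Of 15 such markers 6 were measured, namely Cdh5, Pecam1, Kdr, Flt1, Vwf and Eng. Their summed level was 166.6 to 193.1 CPM in WT Cont, 173.5 to 228.1 in WT LPA and 459.8 to 497.4 in WT LPS. In KO it was 157.7 to 177.7, 149.9 to 168.9 and 353.0 to 410.5 CPM. With LPS, 4 of the 6 rose and 2, Pecam1 and Vwf, fell in each genotype. With LPA in WT 3 rose and 0 fell, namely Cdh5, a cadherin (log2 1.63 ± 0.37), Kdr, a VEGF receptor (1.12 ± 0.15), and Eng, a TGF-β co-receptor (0.22 ± 0.08). In KO 1 rose, the adhesion molecule Pecam1 (1.29 ± 0.31, adjusted p = 0.027), and 1 fell, Kdr (−0.72 ± 0.19, adjusted p = 0.041). For the difference of the LPA effect Pecam1 was at 1.54 ± 0.44 and Kdr at −1.85 ± 0.24. Over all genes, 23.5% rose and 21.1% fell with LPA in WT, and 1.56% and 1.06% in KO. With LPS these shares were 40.6% and 43.6% in WT and 39.3% and 43% in KO. The other 9 endothelial markers, Tie1, Tek and Emcn among them, were looked for by symbol and were not in the deposited table. The smallest gene total in that table was 170 counts. The part of such cells in the Lipg result was not tested.

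Angptl4 was nearly undetected with LPS. WT LPS libraries held 1, 0, 1 and 4 counts and KO LPS libraries 1, 2, 1 and 1. Against untreated cells, 6 counts stood beside 2178 in WT and 5 beside 1381 in KO. Scaled by library size, 0.445% of the untreated level remained in WT (exact 95% interval 0.163 to 0.969%) and 0.565% in KO (0.183 to 1.32%), where the intervals cover counting error only. Of the 6 WT counts, 4 came from replicate 4. The fitted log2 change in WT was −7.70 with all libraries, −8.72 without that replicate and −8.71 with thinned counts, so its size is imprecise. The test gave adjusted p = 2.8e-14 in WT and 2.7e-13 in KO. At these counts no difference between the genotypes under LPS was detectable.

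Pnpla2 and Mgll both fell with LPS. Pnpla2 held 60.0, 57.3, 60.0 and 62.7 CPM in WT LPS and 55.8, 57.2, 57.7 and 57.7 CPM in KO LPS, below all other groups. Its log2 change was −0.72 ± 0.06 in WT (adjusted p = 2.1e-10) and −0.81 ± 0.06 in KO (6.6e-11). Relative to library totals these falls were larger, at −1.28 in WT and −1.30 in KO for Pnpla2 and −1.28 and −1.26 for Mgll. Mgll was uneven, at 6.10, 6.36, 10.8 and 16.9 CPM in WT LPS and 3.28, 6.36, 9.64 and 6.28 CPM in KO LPS. WT LPS replicate 4 overlapped the untreated WT libraries, while the KO ranges were apart. Mgll fell by 0.73 in WT (−0.73 ± 0.27, adjusted p = 0.018) and by 0.77 in KO (−0.77 ± 0.31, adjusted p = 0.028). In WT the call was lost without WT LPS replicate 1 (−0.55, adjusted p = 0.074) or 2 (−0.56, 0.072), and the value was −1.10 without replicate 4. In KO it was lost without KO LPS replicate 1 (−0.55, 0.11), 2 (−0.76, 0.052) or 4 (−0.76, 0.052) and without KO Cont replicate 2 (−0.74, 0.051) or 3 (−0.70, 0.064).

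The proximal promoters of these 2 of the 5 genes are shown, and both genes were lower with LPS. Windows of the other genes, among them those that rose with LPS, are not shown. The 2 windows therefore cannot be set against those of genes that rose. Both windows come from RefSeq (GRCm38.p6) and run from 250 bases before the annotated start to 50 bases after it, 5′ to 3′ on the plus strand. Capitals mark matches on either strand to the GC box GGGCGG, to the hypoxia response element core ACGTG, to the E-box CACGTG that contains that core, or to the NF-kB site. The nuclear receptor half-site AGGTCA and the AP-1 site TGANTCA were also searched.
Pnpla2, chr7:141454938-141455237, plus strand: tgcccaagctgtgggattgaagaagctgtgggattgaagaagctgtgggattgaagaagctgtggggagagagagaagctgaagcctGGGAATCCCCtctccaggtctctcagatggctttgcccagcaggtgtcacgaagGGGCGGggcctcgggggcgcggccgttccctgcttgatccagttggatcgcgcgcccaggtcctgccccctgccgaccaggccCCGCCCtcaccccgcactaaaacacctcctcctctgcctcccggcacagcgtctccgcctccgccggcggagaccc
Mgll, chr6:88724162-88724461, plus strand: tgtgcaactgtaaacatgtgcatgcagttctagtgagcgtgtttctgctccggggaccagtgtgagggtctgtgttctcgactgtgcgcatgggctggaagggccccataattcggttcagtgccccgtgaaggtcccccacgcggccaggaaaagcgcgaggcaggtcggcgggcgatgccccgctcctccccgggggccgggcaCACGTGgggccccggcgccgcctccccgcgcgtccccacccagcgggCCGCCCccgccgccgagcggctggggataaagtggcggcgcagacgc
The Pnpla2 window held an NF-kB site whose first base lay at −163 from the start and GC boxes at −109 and −26. Over 32851 windows of the same length, 4.51% held an NF-kB site and 35.7% a GC box. The Mgll window held an E-box at −44, a motif present in 7.15% of windows, with ACGTG matches at −44 and −43 on opposite strands (19.6% of windows), and a GC box at 3. Neither window held AGGTCA (16.3% of windows) or TGANTCA (7.81%). The windows were 65.3% GC for Pnpla2 and 70% for Mgll, against a median of 52.7%. A second annotated start of Mgll, with a window from 88724454 to 88724753, held ACGTG at −158 and a GC box at −121. These letters are a description and say nothing of binding.

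**Figure D3:**
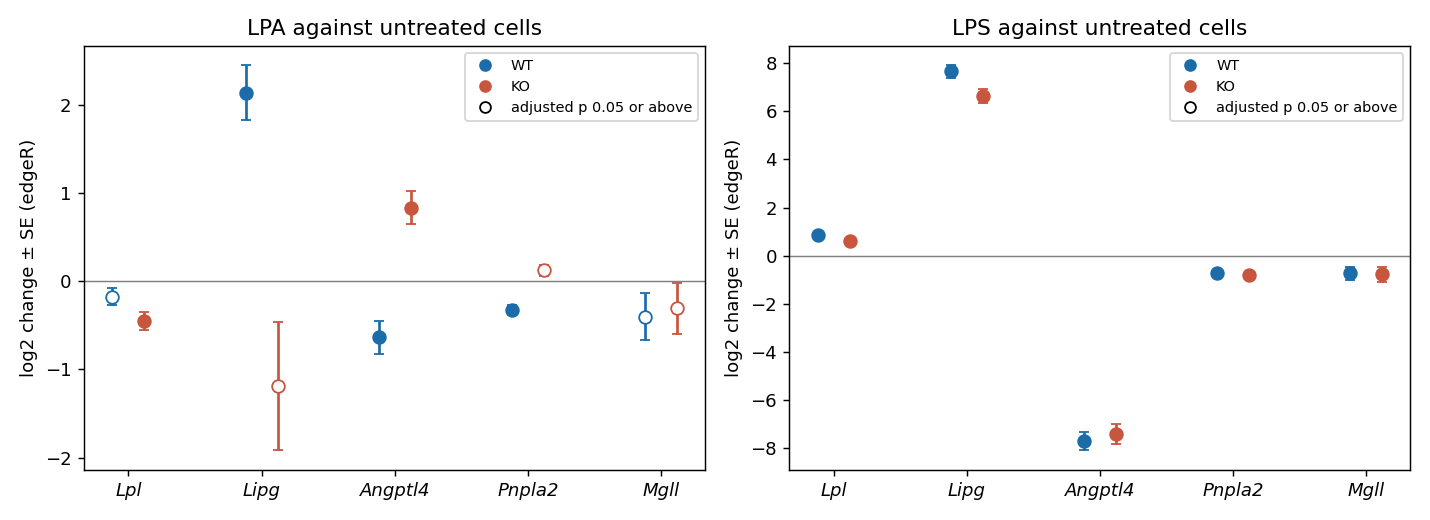
Log2 change ± SE of the 5 genes with LPA (left) and LPS (right) against untreated cells in WT (blue) and KO (red); open points had an adjusted p of 0.05 or above, and the vertical scales differ. With LPA, Angptl4 lies below 0 in WT (−0.64) and above 0 in KO (0.83), whereas with LPS each gene has the same sign in both genotypes.

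LPS and LPA libraries were also compared directly. Of the 5 genes, 4 were called in WT, 2 higher and 2 lower, against 78.9% of all genes (37.8% higher, 41.1% lower). In KO it was 4, again 2 each way, against 82.5% (39.6% higher, 42.8% lower). Lpl was higher with LPS than with LPA by 1.02 ± 0.10 in WT and 1.08 ± 0.10 in KO, and Lipg by 5.52 ± 0.22 and 7.82 ± 0.34. Pnpla2 was lower by −0.40 ± 0.06 and −0.93 ± 0.06. Angptl4 was lower by −7.06 ± 0.40 and −8.23 ± 0.40, and the WT value was −8.09 without WT LPS replicate 4. Mgll was not called, at −0.32 ± 0.28 in WT (adjusted p = 0.29) and −0.46 ± 0.32 in KO (adjusted p = 0.19). It was called in WT without WT LPS replicate 4 (−0.70, adjusted p = 0.017), and in KO with the replicate number as a block (−0.48, adjusted p = 0.040).

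The groups ranked differently for each gene. For Lipg the order of means was WT LPS, KO LPS, WT LPA, WT Cont, KO Cont and KO LPA, from 128.2 ± 30.0 to 0.233 ± 0.141 CPM, and only the last 3 overlapped with a neighbour. For Angptl4 it was KO LPA (28.2 ± 4.17 CPM), KO Cont, WT Cont, WT LPA, KO LPS and WT LPS. There KO Cont overlapped with WT Cont, and KO LPS with WT LPS. For Pnpla2 it was KO LPA, KO Cont, WT Cont, WT LPA, WT LPS and KO LPS, with the first 3 overlapping in turn and the last 2 overlapping. For Lpl, WT LPS and KO LPS overlapped, and KO Cont, WT Cont, WT LPA and KO LPA, in falling order, each overlapped with the next. For Mgll, WT Cont was highest (16.6 ± 1.67 CPM) and KO LPS lowest (6.39 ± 2.60 CPM), and each group in the order WT Cont, WT LPA, KO Cont, WT LPS, KO LPA and KO LPS overlapped with the next.

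The secreted lipases work with partners that anchor, fold or inhibit them. Of 29 listed partners 16 were measured. With LPA in WT, where 23.5% of all genes were called higher and 21.1% lower, 5 rose and 6 fell (median log2 change −0.01, as over all genes). In KO 0 of 16 passed, beside only 2.62% of all genes (1.56% higher, 1.06% lower). Sdc4, a cell surface proteoglycan, rose in WT by 0.95 ± 0.10, was at −0.31 ± 0.10 in KO without passing the test, and differed between genotypes by −1.26 ± 0.15. Sdc1, another syndecan, rose by 1.30 ± 0.20 in WT. Sel1l, a subunit of the endoplasmic reticulum degradation machinery needed for lipoprotein lipase to leave that compartment, rose by 0.19 ± 0.05.

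Lipid droplet lipolysis was represented by enzymes, their co-factors and droplet coat proteins. Of 26 listed genes besides Pnpla2, 15 were measured. In WT 1 rose and 6 fell (median −0.04), and in KO 0 passed. For the difference of the effect 5 were higher in KO and 0 lower. Over all genes, 23.5% rose and 21.1% fell in WT, and 1.56% and 1.06% in KO. For the difference, 12.7% of all genes were higher and 15.8% lower in KO. The droplet gene that rose in WT was Hilpda, a hypoxia-inducible inhibitor of ATGL (0.65 ± 0.14). Pnpla7, a lysophospholipase of the same patatin-like family as ATGL, fell by 0.87 (−0.87 ± 0.13), against −0.00 ± 0.13 in KO. Its relative Pnpla6 was at −0.34 ± 0.08, and Plin3, a lipid droplet coat protein, at −0.24 ± 0.05, both in WT. Of 14 measured genes of monoacylglycerol and endocannabinoid turnover, 3 rose and 5 fell in WT (median −0.14). Ptgs1, cyclooxygenase 1, fell by 1.29 (−1.29 ± 0.15), against 0.06 ± 0.15 in KO. Daglb, which makes 2-arachidonoylglycerol, was at −0.72 ± 0.12. Gdpd1 (0.46 ± 0.07) and Plcg2, a phospholipase C (0.28 ± 0.04), rose. In KO 1 of 14 fell, the amidase Naaa (−0.41 ± 0.09, adjusted p = 0.0098), which also fell in WT (−0.24 ± 0.08, adjusted p = 0.025).

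Triacylglycerol synthesis is the counterpart of lipolysis. Of 18 measured genes of it, 10 rose and 2 fell in WT (median 0.24), beside 23.5% and 21.1% of all genes. In KO 1 rose, Lpin2, a phosphatidate phosphatase (0.47 ± 0.07), beside 1.56% of all genes higher there. For the difference of the effect 3 were higher and 10 lower in KO, beside 12.7% and 15.8% of all genes. Gk, glycerol kinase, rose by 0.88 ± 0.10, and the acyl-CoA synthetases Acsl4 and Acsl5 by 0.58 ± 0.07 and 0.60 ± 0.07. Agpat4, an acyltransferase, rose by 1.25 ± 0.16. Of 9 genes of fatty acid uptake and binding 3 rose in WT, namely Cav1, the caveolin (1.79 ± 0.29), Msr1, a scavenger receptor (0.76 ± 0.14), and Fabp3, a fatty acid binding protein (0.60 ± 0.15). Scaled by library totals 1 of the 9 was called lower as well.

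Fatty acids released by lipases are burned in mitochondria and activate PPAR receptors. With LPA in WT, of 19 oxidation genes 0 rose and 9 fell (median −0.19), and of 17 measured PPAR receptors and targets other than Angptl4 0 rose and 8 fell (median −0.16). Of all genes tested, 44.6% were called there, 23.5% higher and 21.1% lower, and their median was −0.01. Some genes, such as Acaa2 and Acadm, stand in both lists. Acaa2, the last enzyme of the oxidation spiral, was at −0.53 ± 0.08 in WT and 0.00 ± 0.08 in KO. Hadh was at −0.61 ± 0.10, Hadhb at −0.39 ± 0.07 and Acadm at −0.33 ± 0.07, all β-oxidation enzymes. Ppard, a PPAR receptor, was at −0.50 ± 0.10. In KO 2 oxidation genes rose, Cpt1a and Slc25a20, which carry acyl groups into mitochondria (0.32, adjusted p = 0.043, and 0.25, adjusted p = 0.026). These 2 and Ucp2 (0.29 ± 0.06, adjusted p = 0.012) were the 3 PPAR targets that rose there, and 0 genes of either list fell. Among all genes, 1.56% rose and 1.06% fell with LPA in KO. The difference of the effect was higher in KO for 6 oxidation genes and 7 PPAR genes and lower for 0. Beside these stand 12.7% of all genes higher and 15.8% lower.

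Angptl4 and Hilpda are also known as HIF-1 targets. With LPA, 23.5% of all genes rose and 21.1% fell in WT, and 1.56% and 1.06% in KO. The difference of the effect was called higher in KO for 12.7% of all genes and lower for 15.8%. Of 21 measured HIF-1 targets other than Angptl4, 14 rose and 2 fell with LPA in WT (median 0.63). Ak4, an adenylate kinase, rose by 3.41 ± 0.30, Egln3, an oxygen-sensing hydroxylase, by 2.72 ± 0.29, P4ha1, a collagen prolyl hydroxylase, by 0.91 ± 0.09 and Hk2, hexokinase 2, by 0.80 ± 0.08. In KO 3 rose, namely Vegfa (1.08 ± 0.20), Egln3 (1.56 ± 0.40) and Hk2 (0.43 ± 0.08), and Ndrg1 fell (−0.39, adjusted p = 0.016). For the difference of the effect 2 were higher and 8 lower in KO, among the latter Pfkfb3, a regulator of glycolysis (−0.67 ± 0.11), and P4ha1 (−0.72 ± 0.13). Under the 2 other scalings the balance of calls with LPA in WT had the same direction in the lists of droplet lipolysis, triacylglycerol synthesis, oxidation, PPAR and HIF-1 genes.

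**Figure D4:**
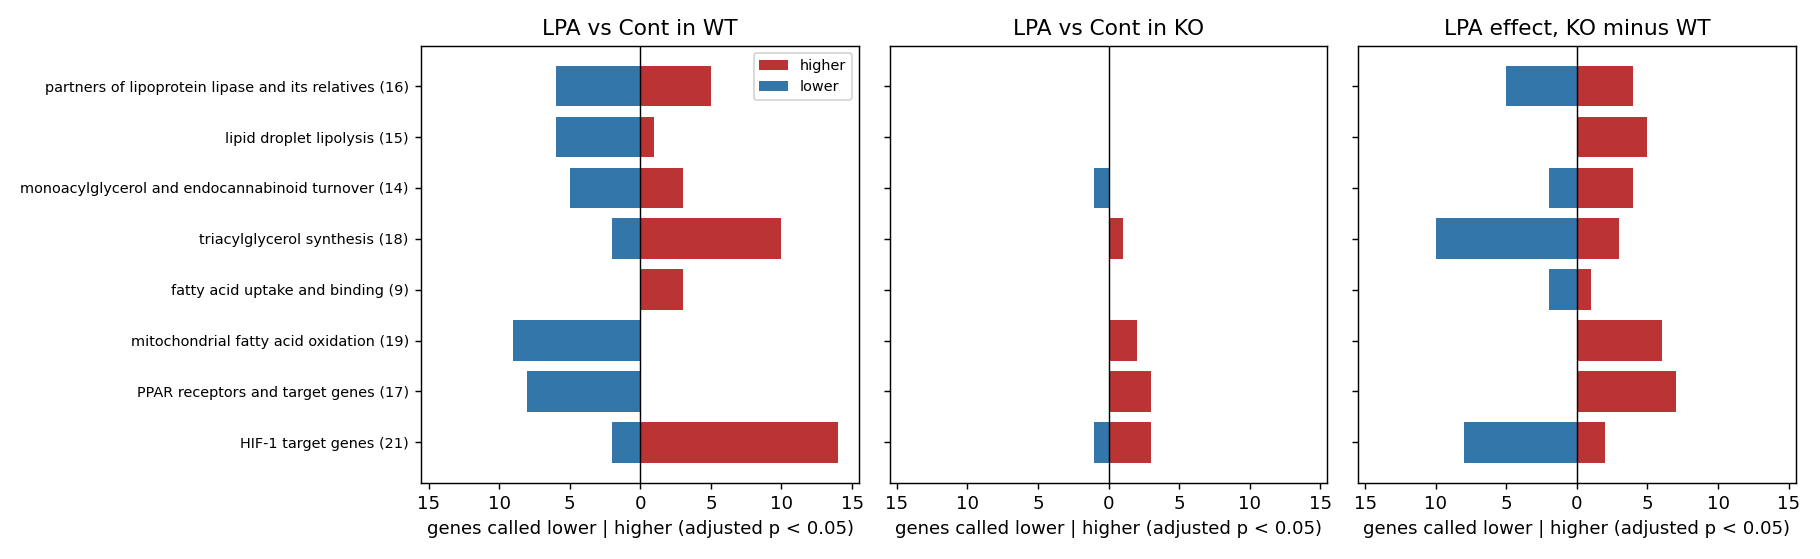
Number of genes called higher (red, right of 0) and lower (blue, left of 0) at an adjusted p below 0.05 in 8 lists of lipid and hypoxia genes, for LPA in WT, LPA in KO and the difference of the LPA effect; the number measured stands in parentheses and the 5 genes themselves are left out. In WT the oxidation and PPAR lists have 0 genes higher, while triacylglycerol synthesis and HIF-1 targets have 10 and 14. Over all genes, 23.5% were called higher and 21.1% lower with LPA in WT.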

How the data were processed

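The authors deposited a table of raw counts per gene for 24 libraries of polyadenylated RNA. Per the labels' protocols, stranded libraries were sequenced as paired 51-base reads. The submitters' processing notes name STAR 2.5.2a and mm10. How reads were counted, with which strand setting and annotation, is not given in the sources used here. Every column was matched to a sample, and the smallest gene total was 170 counts.

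The counts were tested with edgeR 4.0.16 (TMM scaling, robust quasi-likelihood F test, R 4.3.3, limma 3.58.1). The model held 6 group means over 24 libraries, with 18 residual degrees of freedom, and filterByExpr removed no gene. P-values were adjusted by Benjamini-Hochberg over 11590 genes in each of 11 comparisons, with a threshold of 0.05. CPM values are TMM-scaled (factors 0.739 to 1.18). Chi-square per degree of freedom was 4.09 to 77.3 over the 36 replicate pairs, so none was a copy. The test was also run on simulated counts, with the same dispersion for every gene and each gene's mean level over the 24 libraries. That run does not cover genes near 0 in single groups, such as Lipg without LPS or Angptl4 with LPS.

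The 5 genes and the 13 gene lists were chosen with earlier results of these data known. Named list genes were, per list, up to 4 with the smallest adjusted p with LPA in WT and up to 2 for the difference of the LPA effect, plus members of counts of 5 or fewer. One gene picked by this rule is not reported here. For each of the 5 genes, the 3 most correlated genes were named. Names of LPS-responsive list genes were chosen after their values were seen.

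Alternatives were median-ratio factors, library totals, DESeq2 1.42.0, no filter, a filter of 50 counts in 4 libraries, the compared groups alone, counts thinned to 15167683, a replicate block and leaving out each library. Deviations of same-numbered libraries within a genotype correlated by 0.0692 to 0.772 (24 pairs, median 0.272), and across genotypes by a median of −0.0915 (36 pairs). The main test held no replicate term, so its p-values ignore any pairing. The numbers were read as likely pairs for LPA against Cont in both genotypes and for LPS in KO. They were not for LPS in WT, where replicate 1 reached 0.0938 with Cont and 0.0692 with LPA, nor across genotypes. The block alternative was fitted in those comparisons all the same.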

Additional observations from a re-analysis of the deposited data

Results flagged for a closer look

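In the groups of 4 libraries, 3 of 30 gene and group combinations had a library far from the other 3, and chance flags about 1 in 20. Angptl4 in KO Cont replicate 1 was at 23.3 CPM, with the next library at 13.8 CPM. Angptl4 in KO LPS replicate 2 was at 0.141 CPM, with the next at 0.0785 CPM, which is 2 counts against 1. Pnpla2 in WT Cont replicate 1 was at 90.7 CPM, with the next at 100.9 CPM.

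The LPA effect differed between genotypes by the test of the difference itself for 3 genes. The difference, KO minus WT on the log2 scale, was −3.32 for Lipg, 1.47 for Angptl4 and 0.45 for Pnpla2.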

How the results depend on the processing

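Of the values of the 5 genes under settings that kept all libraries, 427 kept their direction and side of the threshold, 4 turned direction, 4 gained a call and 3 lost one. Leaving out 1 library gave 498, 9, 2 and 11. The setting without a filter was bound to repeat the main fit, since filterByExpr had removed no gene. Its values are counted among the 427. The causes of the changes were not tested. Scaling by library totals put the median of all genes at −0.59 for LPS in WT, −0.55 for LPS in KO and 0.11 for KO against WT with LPA. It moved the higher share of calls from 52.7% to 40.3% (LPA in WT), 48.3% to 23.3% (LPS in WT), 47.7% to 24.1% (LPS in KO), 48.4% to 67.4% (KO against WT with LPA), 24.2% to 78.2% (KO against WT with LPS) and 44.6% to 59.9% (difference of the LPA effect). With it, Lpl with LPS in KO was 0.13, Mgll in LPS against LPA was −0.83 in WT and −0.97 in KO, both called, Pnpla2 in KO against WT with LPS was 0.0150, and Mgll for the difference of the LPS effect was 0.0237. Thinned counts turned Pnpla2 in KO against WT without treatment to −0.0158. The compared groups alone gave 0.84 for Angptl4 with LPA in KO, without a call, and 131 genes for KO against WT with LPS. That fit filtered out Lipg for LPA in KO and Angptl4 for KO against WT with LPS.

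With the replicate block, Mgll was −0.46 with LPA in WT and −0.48 in LPS against LPA in KO, both called, and 0.0240 for the difference of the LPS effect. Lipg in KO against WT with LPS was −1.18 and not called, among 0 genes called, although the numbers do not pair samples across genotypes. The block gave 554 genes for LPA in KO, 300 of them shared with the 304 called without it, and it changed no other call of the 5 genes. DESeq2 called 461 genes for LPA in KO, 581 for KO against WT with LPS and 17 for the difference of the LPS effect, where edgeR called 0 (698 at an unadjusted p under 0.05).

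Leaving out each library in turn gave 168 to 310 genes for LPA in KO, 65 to 577 for KO against WT with LPS and 0 to 1 for the difference of the LPS effect. With LPA, Lpl ranged from −0.26 to −0.10 in WT and −0.50 to −0.40 in KO, and Angptl4 in KO from 0.73 to 1.08. Mgll ranged from −1.10 to −0.55 with LPS in WT, −1.04 to −0.55 with LPS in KO, −0.70 to −0.10 in LPS against LPA in WT, −0.0230 to 0.32 for the difference of the LPA effect and −0.31 to 0.34 for that of the LPS effect. Angptl4 for the latter ranged from −0.0740 to 1.33, and Pnpla2 in KO against WT without treatment from −0.0284 to 0.0530. Depth limits Lipg without LPS, with 2 to 166 counts per library, and Angptl4 with LPS, with 0 to 4.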

Other observations

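With LPS, other genes of lipid breakdown moved both ways. Over all genes, 40.6% were called higher and 43.6% lower in WT, and 39.3% and 43% in KO. Of 15 measured genes of droplet lipolysis besides Pnpla2, 5 rose and 8 fell in WT (median log2 change −0.42) and 4 rose and 9 fell in KO (median −0.49), beside a median of all genes of −0.04 in WT and −0.05 in KO. Lipe, hormone-sensitive lipase, which acts after ATGL, rose by 0.78 ± 0.07 in WT and 0.74 ± 0.07 in KO. Abhd5, the activator of ATGL, rose by 0.54 ± 0.09 and 0.52 ± 0.10. Lipa, the lysosomal acid lipase, fell by 0.95 in WT (−0.95 ± 0.10) and by 0.75 in KO (−0.75 ± 0.10). Lpin1, a phosphatidate phosphatase of triacylglycerol synthesis, was at −5.66 ± 0.27 and −5.42 ± 0.30, although 11 of 18 genes of that list rose in WT and 10 of 18 in KO. Angptl2, of the same family as Angptl4, was at −3.46 ± 0.42 and −3.30 ± 0.47. Of 17 PPAR receptors and targets 14 fell and 1 rose in WT and 15 fell and 1 rose in KO, where 84.2% and 82.3% of all genes were called, 43.6% and 43% lower. Among those that fell were Pparg (−1.22 ± 0.12 and −1.42 ± 0.13) and Fabp4 (−0.93 ± 0.16 and −1.22 ± 0.18). Naaa, which fell with LPA in both genotypes, rose with LPS in both genotypes (1.04 ± 0.08 and 0.65 ± 0.09). Scaled by library totals, droplet lipolysis had 2 genes higher and 11 lower in both genotypes.

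Across the 24 libraries, log2 CPM of Angptl4 correlated with that of Pnpla2 at Pearson's r = 0.948 and with that of Lipg at r = −0.981, given as descriptions, since the libraries are shared and the LPS libraries lie apart from the rest. By the same measure the most similar genes were Cep164, Zdhhc14 and Ptprs for Angptl4 (r = 0.994, 0.994 and 0.993) and Atp10a, Slc25a12 and Gca for Lipg (0.995, 0.994 and 0.993). They were Usp30, Ip6k1 and Hgf for Pnpla2 (0.987, 0.985 and 0.982) and Bmt2, Arfip1 and Tbl1x for Lpl (0.972, 0.962 and 0.960). Mgll had lower values, with Dnaaf3 at 0.827, Ctsk at 0.796 and Mvb12a at 0.787.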
